A study of Mus musculus with 16 samples.

Results

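Hamstring muscle after spinal cord injury alone, the 4 samples titled SCI+saline, was compared with hamstring muscle after cardiotoxin alone, the 4 samples titled Sham+CDTX. These are 8 of the 16 samples of the series, and they were chosen by their titles. The SCI+saline mice had a cord injury at a low thoracic level and saline injected into the muscle. The Sham+CDTX mice had sham surgery and an injection of cardiotoxin (CDTX) into the muscle. The mice were female, muscle was taken 2 days after surgery, and the labels name no strain or genotype. Each group stands for both a surgery and an injection, so the 2 groups differ in both, and each carries the control form of the other's insult. The 4 Sham+Saline samples, with neither insult, are given beside them as the background. Expression was read on an Illumina bead array with 1 array a sample.

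Cardiotoxin is a snake venom peptide that disrupts the membranes of muscle fibres, after which phagocytes clear the dead fibres and resident precursor cells divide and rebuild the tissue. An injury of the cord silences or alters the drive from motor nerves to the limb without touching the muscle itself. Muscle that loses nerve activity is known to make acetylcholine receptors outside the junction and to take apart its contractile proteins through ubiquitin ligases, the proteasome and autophagy. Stress hormones of the adrenal gland can drive the same breakdown.

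Levels are given on a log2 scale after normalization between arrays, so a difference of 1 is a doubling, and every difference is SCI+saline minus Sham+CDTX unless another is named. A probe or gene is said to be called where limma's adjusted p was under 0.05. Of 14763 probes tested, 7064 were called, which is 47.8%. Of these, 3640 (24.7% of those tested) were higher in SCI+saline and 3424 (23.2%) in Sham+CDTX. With arrays scaled to a common median in place of quantiles, 35.11% of the calls were higher in SCI+saline against 51.53%, and the median difference of all probes was -0.10 in place of 0.04. A difference of at least 1 was reached by 2392 called probes (16.2%), 1031 of them higher in SCI+saline and 1361 in Sham+CDTX, but by 978 without background correction. The 4 arrays of one group all lay above the 4 of the other for 6511 probes, which is 44.1%. Taken by each gene's brightest probe, 49.1% of 10952 genes were called, 24.6% higher in SCI+saline and 24.5% higher in Sham+CDTX, and the counts in gene lists below are to be read against these shares. Against Sham+Saline, 29.5% of probes were called in SCI+saline (14.8% higher, 14.6% lower, 7.06% by at least 1). In Sham+CDTX it was 48.9% (23.1% higher, 25.8% lower, 16.8% by at least 1). Both of these comparisons use the same Sham+Saline arrays. Their directions depend on the scaling: under median scaling 4436 probes were called higher and 696 lower in SCI+saline, and 6705 and 1172 in Sham+CDTX. The median difference of all probes then moved from -0.01 to 0.17 and from -0.04 to 0.32. List counts cover the members that were measured, which means detected on at least 3 arrays.

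The arrays differed in other ways that move with the groups. Each surgery lies on 1 slide, so the slide and the surgery cannot be told apart. Cardiotoxin arrays lie at positions A to D of a slide and saline arrays at E to H, so position and injection cannot be told apart either. SCI+saline and Sham+CDTX thus differ in slide and position, and Sham+CDTX and Sham+Saline in position. Nothing in the labels says that replicates are separate animals, so p-values measure the spread between these samples. Mean raw intensity was 327.8 ± 6.32 (SD, n = 4) in SCI+saline and 334.0 ± 6.04 (SD, n = 4) in Sham+CDTX (exact permutation p = 0.1714), and lower in Sham+Saline, at 250.9 ± 20.7 (SD, n = 4), with no overlap. Detected probes numbered 11555 to 12787 in SCI+saline and 13221 to 13569 in Sham+CDTX (exact permutation p = 0.0286, two-sided, the smallest that 4 against 4 allows). For 2782 genes with more than 1 probe, the main axis along which their 2 brightest probes came apart (33.1% of that variance), here the probe difference score, was 0.347 to 0.391 on Sham+CDTX arrays. It was -0.266 to -0.080 on SCI+saline arrays and -0.256 to -0.160 on Sham+Saline arrays. A fit with this score as a covariate, which can separate it from the groups mainly through the array SCI+CDTX 2, left out by the authors and at 0.280, made 3778 calls, 3595 of them by at least 1. It kept 2685 of the 7064 calls in the same direction and called 116 in the opposite one. By brightest probe, it called 12.2% of genes higher in SCI+saline and 14.8% higher in Sham+CDTX. Where a gene below lost the call of its brightest probe in that fit, this is said beside it. For a gene's other probes it is not said.

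A pair of genes with several probes opens the results. They lead the genes whose probes all moved together, ranked by the smallest difference over a gene's probes. The agreement of their probes was thus a condition of the choice. Fbxo32 encodes atrogin-1, a muscle ubiquitin ligase, and Ccnb1 encodes cyclin B1, which drives entry into mitosis. The first 30 bases of one array probe of each, as deposited, are printed in lower case with nothing marked.
Fbxo32: aaacattctgccagctgctgtttcccctcg
Ccnb1: tgcccccaagtctcactatcaacagataag
The Fbxo32 probe, for a gene on chromosome 15 in band 15qD1, had levels of 10.39, 10.78, 10.91 and 10.21 on SCI+saline 1 to 4 and of 7.08, 7.78, 7.87 and 7.59 on Sham+CDTX 1 to 4. All SCI+saline arrays lay above all Sham+CDTX arrays, and the 3 Fbxo32 probes differed by 2.99, 3.04 and 3.35. The Ccnb1 probe, for a gene on chromosome 13 in band 13qD1, had levels of 4.18, 5.34, 4.27 and 5.75 on SCI+saline 1 to 4, where it was detected on 2 arrays, and of 7.62, 7.58, 7.92 and 7.79 on Sham+CDTX 1 to 4. Here the order was the reverse, and both Ccnb1 probes were lower in SCI+saline, by -2.84 and -2.96.

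Genes of the neuromuscular junction were more often higher after cord injury. Of 21 measured, 10 were called higher in SCI+saline, 2 higher in Sham+CDTX and 9 in neither direction, with a median difference of 0.45 against 0.04 for all probes. Chrna9, a receptor subunit related to those of muscle, had levels of 9.46, 9.78, 9.23 and 9.39 on SCI+saline 1 to 4 and of 6.67, 5.56, 5.94 and 5.66 on Sham+CDTX 1 to 4. The groups were far apart, 11.4-fold or 3.51 ± 0.25 (SE; adjusted p = 6.19e-09). Musk, the kinase that organises the postsynaptic membrane, lay at 7.51, 7.53, 7.26 and 7.25 on SCI+saline and at 5.23, 5.29, 5.32 and 5.36 on Sham+CDTX arrays. Its difference was 2.09 ± 0.14 (SE; adjusted p = 5.36e-09), with no overlap. The other Musk probe was called at 0.51, with detection on 3 SCI+saline arrays and 0 Sham+CDTX arrays. Gadd45a, a stress gene known to rise in denervated muscle, stood at 12.15, 12.16, 12.68 and 11.86 after cord injury and at 9.47, 9.72, 9.48 and 9.42 after cardiotoxin, a difference of 2.69 ± 0.20 (SE; adjusted p = 9.69e-09). By this probe Gadd45a in Sham+CDTX was -0.04 from Sham+Saline and not called. Its other probe differed by 1.67 between the groups and was called above Sham+Saline in Sham+CDTX too, by 0.83.

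The subunits of the muscle receptor itself showed smaller differences. Chrna1, the ligand-binding subunit, was called at 0.92, Chrnd at 0.50 (its other probe was not called, at 0.19) and Chrnb1 at 0.44, but Chrna1 lost its call with the score in the fit. The fetal subunit gene Chrng (0.54) and the adult one, Chrne (-0.01), were not called. Against Sham+Saline, Chrng was 3.05 in SCI+saline and 2.51 in Sham+CDTX, and Chrna1 was 2.35 and 1.43, all called. These comparisons share the Sham+Saline arrays. Rapsn, which clusters the receptors, went in opposite directions, 0.84 in SCI+saline and -0.70 in Sham+CDTX against Sham+Saline, the second of which was not called under median scaling (0.03, adjusted p = 0.875). Runx1 (1.32), a transcription factor of denervated muscle, and Hdac4 (1.79), a deacetylase that relays loss of activity, were also called higher in SCI+saline. Ache, the enzyme that splits acetylcholine, had 5.2, 4.76, 4.9 and 4.92 on SCI+saline arrays and 5.78, 6.01, 5.73 and 5.57 on Sham+CDTX arrays, and was lower after cord injury by -0.83 ± 0.15 (SE; adjusted p = 0.000214); this call was lost with the score (-0.80, adjusted p = 0.117). Prkar1a, the other member called lower, turned sign in that fit.

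The promoters of the junction genes were searched for CAGCTG, an E-box of the kind bound by myogenic factors, which reads the same on both strands. In RefSeq windows of 300 bases (250 before and 50 after the gene's start, GRCm38.p6), 8 of the 16 junction genes with a window held it, against 18.3% of 27025 genes. Of the 7 called higher in SCI+saline that had a window, 3 held it. The rest that held it were Chrne, Chrng, Etv5, Hdac9 and Prkar1a, none of them called higher in SCI+saline. The first 3 are shown with the motif in capitals because Chrna9 and Musk are among the 3 highest of the list. Both the motif and the window were chosen after the values were seen, and a match is a description of the sequence, not a binding site.
Chrna9, chr5:65967099-65967128 (+ strand): ctcaaccatctaCAGCTGtttcccctccgc
Musk, chr4:58285882-58285911 (+ strand): gtgagttctcccCAGCTGgccacgtccatc
Chrna1, chr2:73580413-73580442 (- strand): ctgtgggcagctCAGCTGtcatgcgggcac

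Protein breakdown genes formed the most one-sided list on the cord injury side. Of 28 proteasome subunits measured, 25 were called higher in SCI+saline and 0 higher in Sham+CDTX, with a median of 0.95. In the score fit the counts were 23 and 0. Psmc4, an ATPase of the base, had levels of 12.5, 12.59, 12.99 and 12.39 on SCI+saline 1 to 4 and of 10.71, 10.56, 10.79 and 10.59 on Sham+CDTX 1 to 4. Its groups did not overlap, and the difference was 1.95 ± 0.15 (SE; adjusted p = 1.54e-08). Psmd8, of the lid, and Psmb2, of the core particle, differed by 1.76 ± 0.16 (SE) and 1.74 ± 0.16 (SE). The others called ran from 0.51 for Psmd14, the deubiquitinase of the lid, to 1.69 for Psmd4, a ubiquitin receptor. Psmb6, Psmb7 and Psma4 were not called, at 0.33, 0.31 and -0.05, but the other Psmb7 probes were, at 0.62 and 1.51, and the score fit called Psmb7 and Psma4 higher. Against Sham+Saline, 27 of the 28 subunits were called higher in SCI+saline, where 14.7% of all genes were, with a median of 1.22. In Sham+CDTX, 7 were higher (23.7% of all genes were) and 5 lower (26.9%), with a median of 0.18. Median scaling turned these to 16, 0 and 0.50, where 45.4% of all probes were called higher. In SCI+saline all 28 were then called higher, where 30.0% of all probes were.

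The promoters of 23 of the 28 subunits were in the same RefSeq windows, and 5 of them (21.7%) held TGACNNNGC, the core of the antioxidant response element, on either strand. Over all genes it was in 3781 of 27025. Of the 21 subunits called higher with a window, 4 held it; 2 of these are shown, with the motif in capitals (read on the other strand in the second).
Psmb5, chr14:54618023-54618052 (- strand): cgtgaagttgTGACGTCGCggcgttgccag
Psme4, chr11:30771758-30771787 (+ strand): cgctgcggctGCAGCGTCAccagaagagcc

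Atrophy genes leaned the same way, with 10 of 19 measured called higher in SCI+saline, 2 higher in Sham+CDTX (5 under median scaling) and a median of 0.84. Beside Fbxo32, Trim63, the ubiquitin ligase MuRF1 of the sarcomere, had levels of 10.05, 9.95, 9.8 and 9.18 on SCI+saline 1 to 4 and of 6.74, 7.51, 7.56 and 7.45 on Sham+CDTX 1 to 4. The groups were apart by 2.43 ± 0.22 (SE; adjusted p = 9.02e-08), and Sham+CDTX 1 was the lowest array. Both ligases differed from Sham+Saline in opposite directions in the groups. Fbxo32 was 2.16 in SCI+saline and -0.83 in Sham+CDTX, and Trim63 was 1.25 and -1.18, all called. The calls in Sham+CDTX were lost under median scaling, at -0.11, adjusted p = 0.742 and -0.44, adjusted p = 0.11. Eif4ebp1, the brake on cap-dependent translation, stood at 12.31, 12.55, 12.72 and 12.22 in SCI+saline and at 10.62, 9.94, 9.9 and 9.96 in Sham+CDTX, a difference of 2.35 ± 0.16 (SE; adjusted p = 5.66e-09). Foxo1 (1.22), the transcription factor of the atrophy programme, Sqstm1 (1.18), an autophagy receptor, and Ctsl (1.07), a lysosomal protease, were called too. Sesn1, a stress protein that restrains mTOR, ran the other way, at 7.88, 8.18, 7.61 and 7.8 on SCI+saline and 9.42, 9.99, 9.75 and 9.51 on Sham+CDTX arrays, or -1.80 ± 0.18 (SE; adjusted p = 2.42e-07). The other Sesn1 probe was called at -0.52. Bnip3l, a mitophagy receptor, was the other member called lower, at -0.71, and lost its call with the score.

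Glucocorticoid-responsive genes included 12 of 20 measured called higher in SCI+saline and 0 in Sham+CDTX, with a median of 0.71. In the score fit they were 9 and 0. Mt1, a metallothionein that binds zinc, had levels of 13.89, 13.77, 13.39 and 13.85 after cord injury and of 12.67, 12.44, 12.5 and 12.35 after cardiotoxin, a difference of 1.24 ± 0.15 (SE; adjusted p = 1.57e-06). Its groups did not overlap, yet both stood above Sham+Saline, by 3.49 and 2.26. Mt2 differed by 2.15 ± 0.24 (SE), and Cdkn1a, the cell cycle inhibitor p21, by 0.98. Tsc22d3, or GILZ, a direct target of the receptor, differed by 0.89. Fkbp5 (0.73) and Klf15 (0.77), other direct targets, were called, but with the score in the fit they lost the call although the differences were larger. Per1, Sgk1 and Angptl4, also known targets, were not called, at 0.25, -0.07 and -0.12, but the other Per1 probe was, at 0.76.

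**Figure D1:**
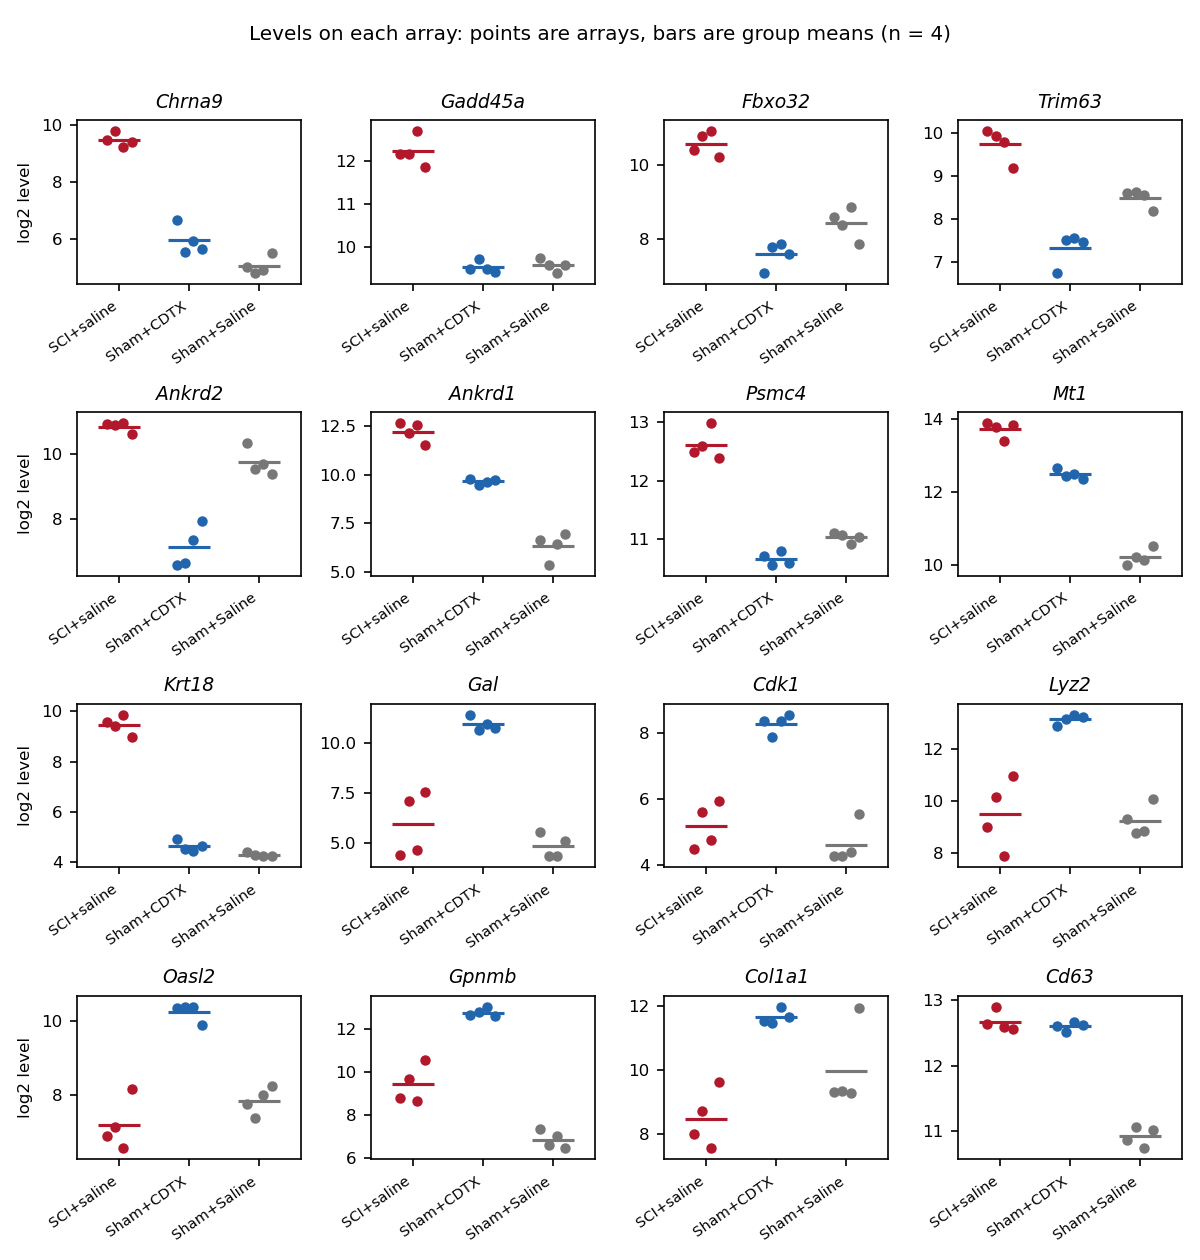
Log2 level of 16 genes on each array (y axis) in SCI+saline, Sham+CDTX and Sham+Saline, with bars at the group means of 4 arrays; each panel has its own scale. In the first 9 panels the SCI+saline arrays lie above the Sham+CDTX arrays, in the next 6 below them, and for Cd63 both groups lie together above Sham+Saline.

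The stretch and sarcomere stress list, which also takes in small heat shock proteins and a receptor, had 10 of 16 measured called higher in SCI+saline. It had 0 higher in Sham+CDTX and a median of 0.73. Ankrd2, an ankyrin repeat protein of the I band, had levels of 10.91, 10.87, 10.94 and 10.6 on SCI+saline 1 to 4 and of 6.62, 6.68, 7.38 and 7.94 on Sham+CDTX 1 to 4. The difference was 12.8-fold, or 3.68 ± 0.26 (SE; adjusted p = 6.79e-09), and Sham+CDTX was also below Sham+Saline, by -2.58. Its relative Ankrd1, or CARP, behaved differently against uninjured muscle. Ankrd1 stood at 12.67, 12.15, 12.56 and 11.54 in SCI+saline and at 9.77, 9.5, 9.66 and 9.72 in Sham+CDTX, apart by 2.57 ± 0.27 (SE; adjusted p = 3.68e-07), and both groups were above Sham+Saline, by 5.87 and 3.31. Its other probe differed by 2.73. Rrad, a small GTPase that restrains calcium channels, had 10.58, 10.12, 10.95 and 9.53 on SCI+saline arrays and 6.73, 7.28, 6.99 and 6.77 on Sham+CDTX arrays, with a difference of 3.36 ± 0.30 (SE; adjusted p = 6.68e-08). The small heat shock proteins Hspb7 (2.41) and Hspb1 (1.74) and the TWEAK receptor Tnfrsf12a (1.44) were called in the same direction.

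Slow fibre genes leaned towards cord injury. Of 14 slow fibre genes measured, 9 were called higher in SCI+saline and 2 higher in Sham+CDTX, with a median of 0.95. This came with lower levels than in Sham+Saline in both groups. Against it, 8 slow genes were called lower in SCI+saline (15.8% of all genes were) and 11 in Sham+CDTX (26.9%), with medians of -0.66 and -1.57. Under median scaling these were 3 and 10 (4.71% and 7.94% of all probes), with medians of -0.21 and -0.85. Tnnt1, slow troponin T, had levels of 10.83, 12.1, 11.68 and 11.94 on SCI+saline 1 to 4 and of 10.58, 9.81, 9.99 and 10.35 on Sham+CDTX 1 to 4. The difference was 1.45 ± 0.25 (SE; adjusted p = 8.65e-05), and the groups did not overlap although SCI+saline 1 came close to Sham+CDTX 1. Myoz2, a calcineurin-binding protein of slow fibres, differed by 1.54 ± 0.18 (SE; adjusted p = 1.25e-06), with SCI+saline -0.96 and Sham+CDTX -2.50 from Sham+Saline, the first of which was not called under median scaling (-0.53, adjusted p = 0.0615). Sln, sarcolipin, which slows the calcium pump, was called above Sham+Saline instead: it stood at 10.84, 11.8, 10.99 and 11.82 in SCI+saline against 10.38, 9.24, 9.09 and 8.6 in Sham+CDTX and was 2.33 from Sham+Saline in SCI+saline (called) and 0.30 in Sham+CDTX (not called, but 0.90, adjusted p = 0.0484 under median scaling). Tpm3 by its brightest probe was called above Sham+Saline in Sham+CDTX, by 2.50. Its other probes had lower means in Sham+CDTX (6.81, 6.81 and 7.03) than in Sham+Saline (8.31, 8.20 and 8.48). Myh7, the slow myosin heavy chain, was not called, at 0.12, but was with the score, at 1.96.

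Fast fibre genes showed no such lean, with 1 of 23 called higher in SCI+saline, 4 higher in Sham+CDTX and a median of -0.01. Median scaling turned these to 3, 7 and 0.17. Acta1 (0.13), Ckm (0.05), Pvalb (0.08) and Tnni2 (-0.00), among the main products of fast fibres, were not called. They are among the brightest probes, with levels of 13.64 to 14.21 where the highest of any probe was 14.38. Myh4, Mylpf, Myl1, Tnnt3, Tnnc2 and Actn3 of this list are as bright. How far signals this bright can still differ was not tested, which limits what the missing lean can show. Myh1, the IIx myosin heavy chain, had levels of 11.14, 10.54, 11.24 and 10.92 on SCI+saline and of 12.07, 12.26, 12.4 and 12.11 on Sham+CDTX arrays, lower after cord injury by -1.25 ± 0.19 (SE; adjusted p = 2.9e-05). With the score in the fit Myh1 turned to 0.68, adjusted p = 0.402, and averaged over its probes it was -0.62 (adjusted p = 0.0549). The 11 general muscle markers measured, which check the tissue label, had overlapping means, 13.40 to 13.62 in SCI+saline and 13.20 to 13.46 in Sham+CDTX. Acta1, Ckm and Tnni2 are among them, so the same limit on bright signals holds here. The overlap was not a test of how much muscle the samples held.

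The myogenic factors also parted. Myog, myogenin, had levels of 9.81, 9.43, 9.77 and 9.98 on SCI+saline 1 to 4 and of 8.13, 7.19, 7.21 and 7.55 on Sham+CDTX 1 to 4, and Myf6, MRF4, had 12.17, 12.62, 11.69 and 11.65 and 9.98, 10.06, 9.73 and 10.05. Both were higher after cord injury with no overlap, by 2.23 ± 0.18 (SE) and 2.08 ± 0.20 (SE). Myod1 was not called, at 0.38, and was above Sham+Saline in both groups, by 2.62 and 2.24. The precursor and regeneration list as a whole had 4 of 17 called in each direction. H19, an imprinted noncoding RNA of developing muscle, was among the 4 higher in Sham+CDTX (-1.05), a call lost with the score.

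Energy metabolism showed smaller differences. Of 22 fatty acid oxidation genes measured, 10 were called higher in SCI+saline and 3 higher in Sham+CDTX, and of 26 respiratory chain genes 9 and 1, with medians of 0.37 and 0.24. In Sham+CDTX, 17 and 18 of them were called lower than in Sham+Saline (26.9% of all genes were), against 10 and 10 in SCI+saline (15.8%). Under median scaling these were 8 and 14 in Sham+CDTX (7.94% of all probes) and 6 and 0 in SCI+saline (4.71%). In the score fit the respiratory chain counts were 5 and 0. Acadvl, the first dehydrogenase for very long chains, had 10.65, 10.87, 11.26 and 10.91 on SCI+saline and 9.81, 10.29, 9.88 and 9.82 on Sham+CDTX arrays, apart by 0.97 ± 0.16 (SE; adjusted p = 4.85e-05). The 3 genes called the other way were regulators or lipid handlers. Perm1, a PGC-1-induced regulator of muscle mitochondria, stood at 7.96, 8.04, 8.13 and 7.69 and 8.98, 9.79, 9.79 and 9.84, lower after cord injury by -1.64 ± 0.24 (SE; adjusted p = 1.98e-05), and Ppargc1b and Lpl were lower too, at -1.01 and -1.51. None of these 3 calls held with the score in the fit, where Perm1 was -0.46, adjusted p = 0.617 and Ppargc1b 0.90, adjusted p = 0.203. Glycolysis and glycogen genes had 3 of 19 called higher in SCI+saline and 5 higher in Sham+CDTX. Mettl21c, a muscle lysine methyltransferase, had 6.59, 6.96, 6.32 and 6.77 on SCI+saline and 8.97, 9.09, 8.98 and 9.34 on Sham+CDTX arrays, apart by -2.44 ± 0.16 (SE; adjusted p = 3.1e-09), and was below Sham+Saline in both, by -3.43 and -0.99.

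**Figure D2:**
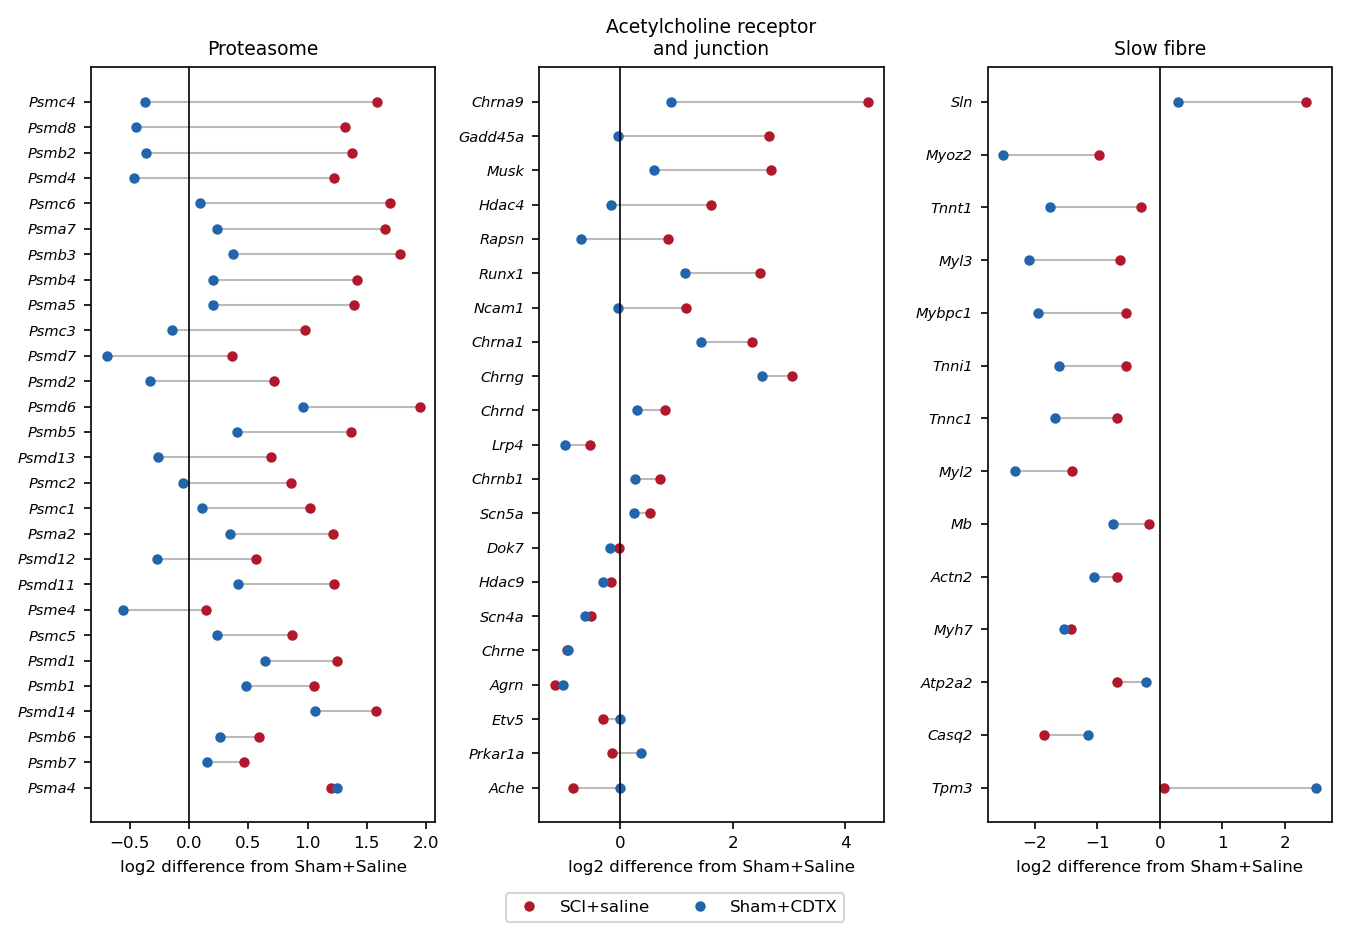
Log2 difference from Sham+Saline (x axis) of each measured gene of 3 lists in SCI+saline and in Sham+CDTX, joined by a line and ordered by the difference between the groups; both share the 4 Sham+Saline arrays. With quantile normalization, proteasome subunits lie right of 0 in SCI+saline and on both sides of it in Sham+CDTX (0 called lower under median scaling), and most slow fibre genes lie left of 0 in both.

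On the cardiotoxin side, proliferation genes were higher in Sham+CDTX for 20 of 22 measured and higher in SCI+saline for 0, with a median of -2.08. Cdk1, the kinase of mitotic entry, had levels of 4.48, 5.61, 4.75 and 5.93 on SCI+saline 1 to 4, detected on 3 of them, and of 8.35, 7.86, 8.36 and 8.54 on Sham+CDTX 1 to 4. It was lower in SCI+saline by -3.09 ± 0.31 (SE; adjusted p = 2.89e-07). Uhrf1, which copies DNA methylation at replication, had 4.74, 5.8, 5.26 and 7.46 and 9.76, 9.37, 9.52 and 9.6, with SCI+saline 4 the highest array of its group and still below Sham+CDTX. Its difference was -3.75 ± 0.47 (SE; adjusted p = 2.87e-06). The replicative helicase genes Mcm2 to Mcm6 ranged from -2.52 to -1.54. Pcna, the sliding clamp, which repair also uses, was not called (0.35) and was above Sham+Saline in both groups, by 1.70 and 1.35. Against Sham+Saline, 21 of the 22 were called higher in Sham+CDTX, where 23.7% of all genes were. In SCI+saline, 4 were called higher (14.7% of all genes were) and 3 lower (15.8%).

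Macrophage and monocyte markers were the strongest cell type difference. Of 21 measured, 17 were called higher in Sham+CDTX and 0 in SCI+saline, with a median of -2.49. Their mean level was 6.85, 7.49, 6.01 and 7.97 on SCI+saline 1 to 4, 9.26, 9.18, 9.38 and 9.14 on Sham+CDTX 1 to 4, and 6.11 to 6.93 in Sham+Saline. SCI+saline 2 and 4 were the higher arrays of their group, and the groups did not overlap (exact permutation p = 0.0286). In whole muscle, fewer cells of a type and less RNA per cell cannot be told apart. Lyz2, lysozyme of myeloid cells, had 9.0, 10.16, 7.87 and 10.94 on SCI+saline and 12.87, 13.15, 13.3 and 13.22 on Sham+CDTX arrays, a difference of -3.64 ± 0.44 (SE; adjusted p = 2.16e-06). Its other probes differed by -2.52, called, and -0.41, not called. The complement genes C1qa, C1qb and C1qc differed by -2.20, -3.32 and -3.10, and Adgre1, an adhesion receptor that marks mouse macrophages, by -2.74. Cd163, Arg1 and Chil3 were among the members not called, and Ccr2 was not detected in either group. The phagocyte, cytokine, interferon, matrix and proliferation lists leaned the same way as these markers, though not every member did. The part of macrophages in those lists was not tested.

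Genes of phagocytosis and the lysosome followed, with 24 of 27 measured called higher in Sham+CDTX, 1 higher in SCI+saline and a median of -1.86. Gpnmb, a glycoprotein of lipid-laden phagocytes, had levels of 8.8, 9.69, 8.68 and 10.58 after cord injury and of 12.65, 12.79, 13.06 and 12.64 after cardiotoxin. The difference was -3.35 ± 0.30 (SE; adjusted p = 8.75e-08), and SCI+saline was itself above Sham+Saline, by 2.58. Trem2, a lipid receptor of macrophages, had 4.4, 7.36, 5.31 and 7.86 and 10.33, 9.89, 10.1 and 10.02, was detected on 3 of the SCI+saline arrays, and differed by -3.85 ± 0.51 (SE; adjusted p = 5.59e-06). Spp1 (-3.19), osteopontin, and Ctss (-3.32), a cathepsin of antigen-presenting cells, were called as well but not with the score in the fit. Cd68 differed by -2.79 and Grn by -2.69. Ctsd, a broadly expressed cathepsin, was the member higher in SCI+saline, at 0.69; median scaling ended that call at 0.28 (adjusted p = 0.165), as did the score.

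Cytokine and chemokine genes had 20 of 35 measured called higher in Sham+CDTX and 2 higher in SCI+saline, with a median of -0.66. With the score in the fit 13 and 0 were called. The monocyte chemokines Ccl2 and Ccl7 were above Sham+Saline in both groups, Ccl2 by 2.04 in SCI+saline and 3.55 in Sham+CDTX, and Ccl7 by 2.68 and 4.50. They differed between the groups by -1.51 and -1.82, calls that were lost with the score. Tgfb1, the profibrotic growth factor, had 5.74, 6.23, 5.72 and 6.03 and 7.9, 8.8, 8.51 and 7.92, apart by -2.35 ± 0.21 (SE; adjusted p = 6.4e-08), and in SCI+saline was not called against Sham+Saline (0.31), but was under median scaling (0.55, adjusted p = 0.0429). Il1b was not called at -0.50 (with the score it was, at -2.91), and Il10 and Csf3 were not called.

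Interferon-responsive genes had 19 of 23 measured called higher in Sham+CDTX and 1 higher in SCI+saline, with a median of -1.16. Oasl2, of the 2'-5'-oligoadenylate synthetase family, had levels of 6.91, 7.16, 6.58 and 8.18 on SCI+saline 1 to 4 and of 10.34, 10.38, 10.37 and 9.88 on Sham+CDTX 1 to 4. The difference was -3.04 ± 0.28 (SE; adjusted p = 1.1e-07), SCI+saline 4 being the highest of its group. Ifit3 and Gbp3 differed by -2.94 ± 0.33 (SE) and -2.53 ± 0.15 (SE) and were both called below Sham+Saline in SCI+saline, by -1.10 and -1.20, a call that Ifit3 lost under median scaling (-0.74, adjusted p = 0.156). The transcription factors Irf7 and Stat2 differed by -2.43 and -1.87. Cxcl10, a chemokine induced by interferon and by other signals, ran the other way, with 6.67, 6.89, 6.23 and 6.54 in SCI+saline and 5.74, 6.04, 5.76 and 5.74 in Sham+CDTX, or 0.76 ± 0.16 (SE; adjusted p = 0.00064). Median scaling ended that call at 0.33 (adjusted p = 0.0735), and so did the score (0.32, adjusted p = 0.622).

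Matrix genes had 25 of 32 measured called higher in Sham+CDTX and 1 higher in SCI+saline, with a median of -1.32. With the score in the fit these were 14 and 1. Cd44, the hyaluronan receptor, had 6.02, 5.83, 5.59 and 6.58 on SCI+saline and 9.08, 8.96, 9.29 and 9.14 on Sham+CDTX arrays, apart by -3.12 ± 0.23 (SE; adjusted p = 1.13e-08). Col1a1, the main collagen of scar, had 7.99, 8.72, 7.55 and 9.64 and 11.54, 11.47, 11.99 and 11.67, or -3.19 ± 0.49 (SE; adjusted p = 2.55e-05), and was called below Sham+Saline in SCI+saline (-1.50, but not under median scaling, at -1.14, adjusted p = 0.113) and above it in Sham+CDTX (1.69). That call between the groups was lost with the score (-1.79, adjusted p = 0.25), and Sham+Saline 4, at 11.96, stood far above the other 3 Sham+Saline arrays. Lox, which cross-links collagen, differed by -2.73 ± 0.28 (SE). Timp3, an inhibitor of metalloproteinases, was the member higher in SCI+saline, at 0.83, where its other probe was not called (0.08). Markers of fibroadipogenic progenitors, the fibroblast-like cells of muscle, had means of 7.46 to 8.02 in SCI+saline, 8.44 to 8.57 in Sham+CDTX and 8.12 to 8.50 in Sham+Saline (exact permutation p = 0.0286 between the first 2 groups). Of 14 measured, 7 were called higher in Sham+CDTX (4 with the score) and 1 in SCI+saline.

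**Figure D3:**
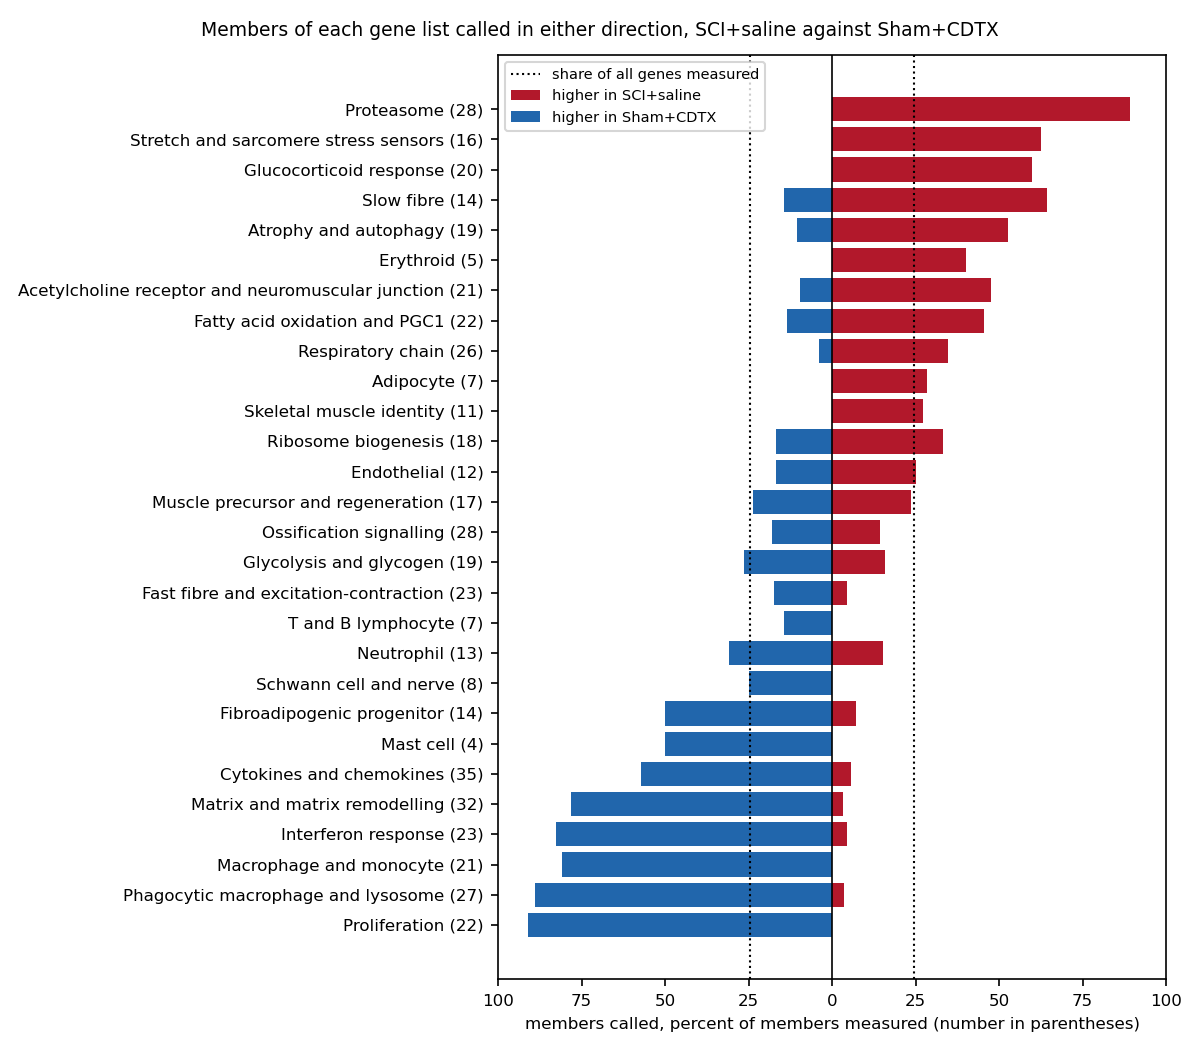
Percent of the measured members of each list (number in parentheses) called higher in SCI+saline (right of 0) or in Sham+CDTX (left of 0); dotted lines mark the shares over all genes, 24.6% and 24.5%. Proteasome, stretch, glucocorticoid and slow fibre lists extend to the right, and proliferation, phagocyte, macrophage, interferon and matrix lists to the left.

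**Figure D4:**
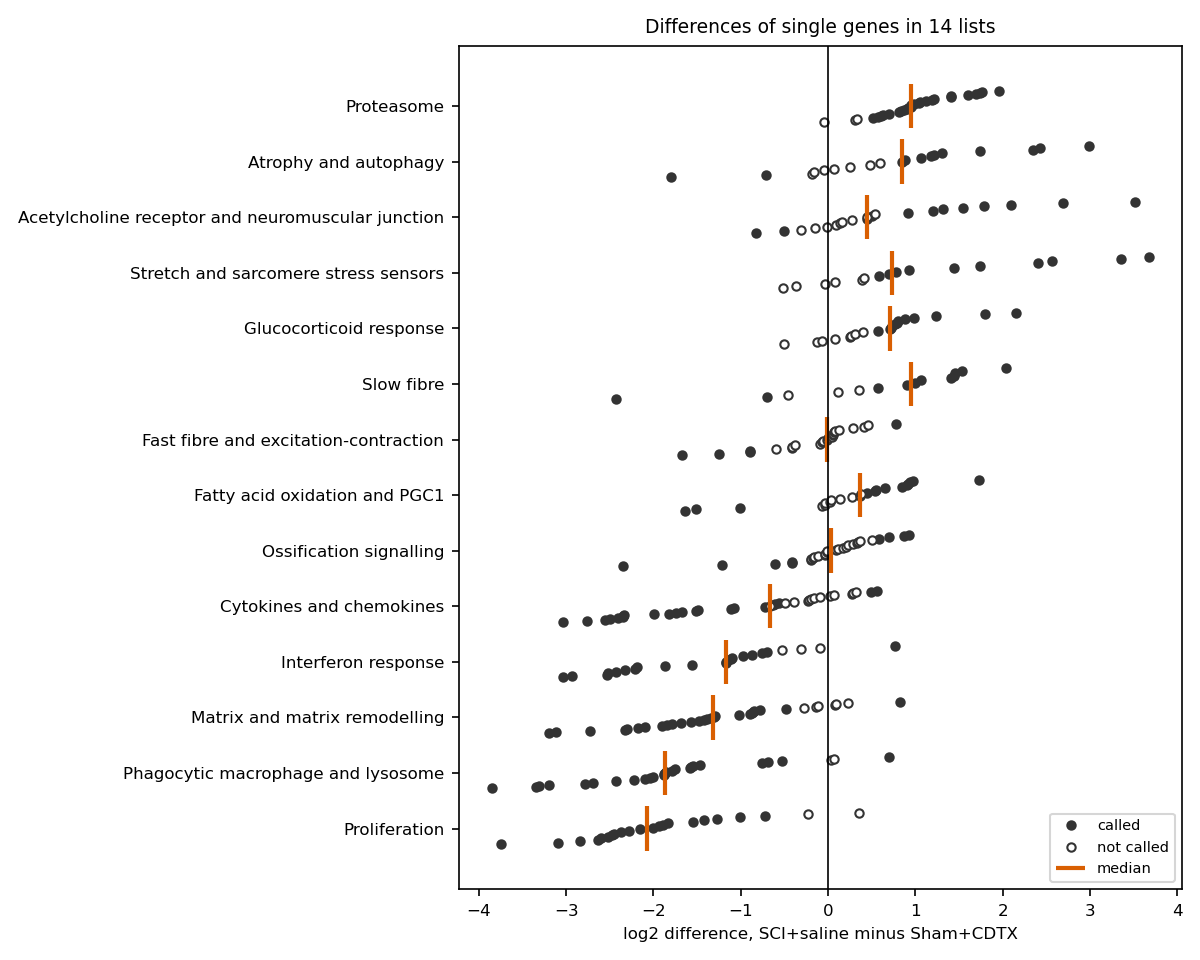
Log2 difference of each measured gene in 14 lists (x axis, SCI+saline minus Sham+CDTX), with filled points called by limma, open points not called, and bars at the list medians. The proteasome genes lie close together around 0.95, and the stretch and junction lists have a few genes far to the right, up to 3.68 and 3.51.

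The study's wider question is bone formation in muscle after both insults together, and 28 genes of ossification signalling were measured in the single insults. Of these, 4 were called higher in SCI+saline and 5 in Sham+CDTX, both below the shares over all genes, with a median of 0.04 that turns to -0.15, with 8 higher in Sham+CDTX, under median scaling. Bmpr1a, a type I receptor for bone morphogenetic proteins, had 9.33, 8.96, 9.08 and 8.63 on SCI+saline and 7.83, 8.16, 8.1 and 8.21 on Sham+CDTX arrays, higher after cord injury by 0.93 ± 0.16 (SE; adjusted p = 9.71e-05). Jak1, a kinase of cytokine receptors, differed by 0.59. Id1, a target of bone morphogenetic protein signalling, was called at 0.87 but turned sign with the score. Tgfbr2 differed by -1.22, but its other probe was not called, at 0.32. Osm, oncostatin M, a cytokine of activated macrophages, had 4.33, 4.86, 4.23 and 5.24 on SCI+saline arrays, detected on 2, and 5.5, 5.18, 5.17 and 5.24 on Sham+CDTX arrays. The difference of -0.61 ± 0.22 (SE; adjusted p = 0.0279) was lost when single arrays were left out: without SCI+saline 1 it was -0.51 (limma adjusted p = 0.0891) and without SCI+saline 3 it was -0.47 (adjusted p = 0.103). Without Sham+CDTX 1 it was -0.53 (adjusted p = 0.0812), and without Sham+CDTX 4 it was -0.61 (adjusted p = 0.0505). Its receptor Osmr, Acvr1 and Bmp4 gave -0.16 (not called), -0.41 (called, but not with the score) and 0.50 (not called).

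Among all genes, the highest and lowest differences were not all in these lists. Krt18, a keratin of simple epithelia, had levels of 9.58, 9.4, 9.86 and 8.97 on SCI+saline 1 to 4 and of 4.95, 4.54, 4.45 and 4.67 on Sham+CDTX 1 to 4, detected on 3 of the latter. This was the highest difference among the genes' brightest probes, 27.8-fold or 4.80 ± 0.22 (SE; adjusted p = 9.98e-11), and Krt18 was detected on 0 of the 4 Sham+Saline arrays. Tmem100, a membrane protein induced by bone morphogenetic protein signalling in endothelium, had 10.32, 10.25, 10.18 and 10.44 and 6.69, 6.39, 6.34 and 6.98, or 3.70 ± 0.17 (SE; adjusted p = 9.98e-11). Dusp13, a phosphatase of muscle and testis, differed by 3.36 ± 0.22 (SE), and its 2 probes did so together. S100a8, a calcium-binding protein of neutrophils, differed by 3.70 ± 1.17 (SE; adjusted p = 0.0135), with levels of 11.83, 10.97, 10.89 and 13.07 and 8.01, 6.94, 8.25 and 8.76. That call was lost with the score (3.90, adjusted p = 0.331), without the detection filter (adjusted p = 0.0658) and with a trended robust prior (adjusted p = 0.0611), and Sham+Saline 4 stood at 12.72 where the other 3 lay at 4.43 to 5.76. Of 13 neutrophil markers measured, 2 were called higher in SCI+saline (24.6% of all genes were) and 4 higher in Sham+CDTX (24.5%). Tpra40 was called at 3.20 but turned to -0.67, adjusted p = 0.318 with the score.

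On the other side, Gal, the neuropeptide galanin, had 4.39, 7.08, 4.62 and 7.54 on SCI+saline arrays, where it was detected on 2, and 11.39, 10.65, 10.95 and 10.75 on Sham+CDTX arrays. It was 32.6-fold higher in Sham+CDTX or -5.03 ± 0.52 (SE; adjusted p = 3.68e-07), a fold that rests in part on the arrays where it was not detected. Against Sham+Saline, Gal was 6.12 in Sham+CDTX and was not called in SCI+saline (1.09). Fscn1, fascin, which bundles actin in motile cells, had 5.77, 6.18, 5.91 and 6.25 and 10.15, 9.88, 10.08 and 9.75, or -3.94 ± 0.20 (SE; adjusted p = 2.79e-10). Sirpa, an inhibitory receptor of phagocytes, Cotl1, an actin-binding protein, and Clec4a1, a lectin of myeloid cells, differed by -3.59 ± 0.30 (SE), -3.55 ± 0.31 (SE) and -3.47 ± 0.26 (SE). Genes with several probes in accord gave Tekt1 (2.64), Fez1 (2.32) and Ciart (2.09), a repressor of the circadian clock, on the cord injury side. On the cardiotoxin side they gave Cd74 (-2.75), the invariant chain of antigen presentation, Lat2 (-3.15), Lgals9 (-3.23) and Ifit2 (-2.52).

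Some genes moved in both insults to a like level by their brightest probe. These were picked as called against Sham+Saline in both groups with the 95% interval of the difference between them inside 0.5. Cd63, a tetraspanin of late endosomes, had 12.63, 12.9, 12.59 and 12.56 on SCI+saline and 12.61, 12.52, 12.66 and 12.62 on Sham+CDTX arrays, against 10.74 to 11.06 in Sham+Saline, and the interval ran from -0.20 to 0.33. Junb, a subunit of AP-1, had 8.33, 7.93, 7.9 and 7.9 and 7.83, 7.87, 8.18 and 8.01, with an interval of -0.42 to 0.50. Esd, Dnajc2 and Hsp90aa1 were the others above Sham+Saline, where Hsp90aa1 was detected on 0 of 4 arrays. Below Sham+Saline were Idh3a, of the citric acid cycle, Fitm2, of lipid droplet formation, Dab2ip, Abhd18 and Aimp2. Idh3a stood -1.68 and -1.63 from Sham+Saline, and its interval was -0.42 to 0.30. With the score in the fit Dnajc2 was called at 2.01, adjusted p = 0.0013 and Esd at 1.09, adjusted p = 0.0279, and median scaling called Abhd18 at -0.48 and Hsp90aa1 at -0.46. Other probes of these genes were called between the groups, at 0.39 for 1 of the 3 of Cd63, 0.84 for Dnajc2 and -0.50 for Aimp2.

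**Figure D5:**
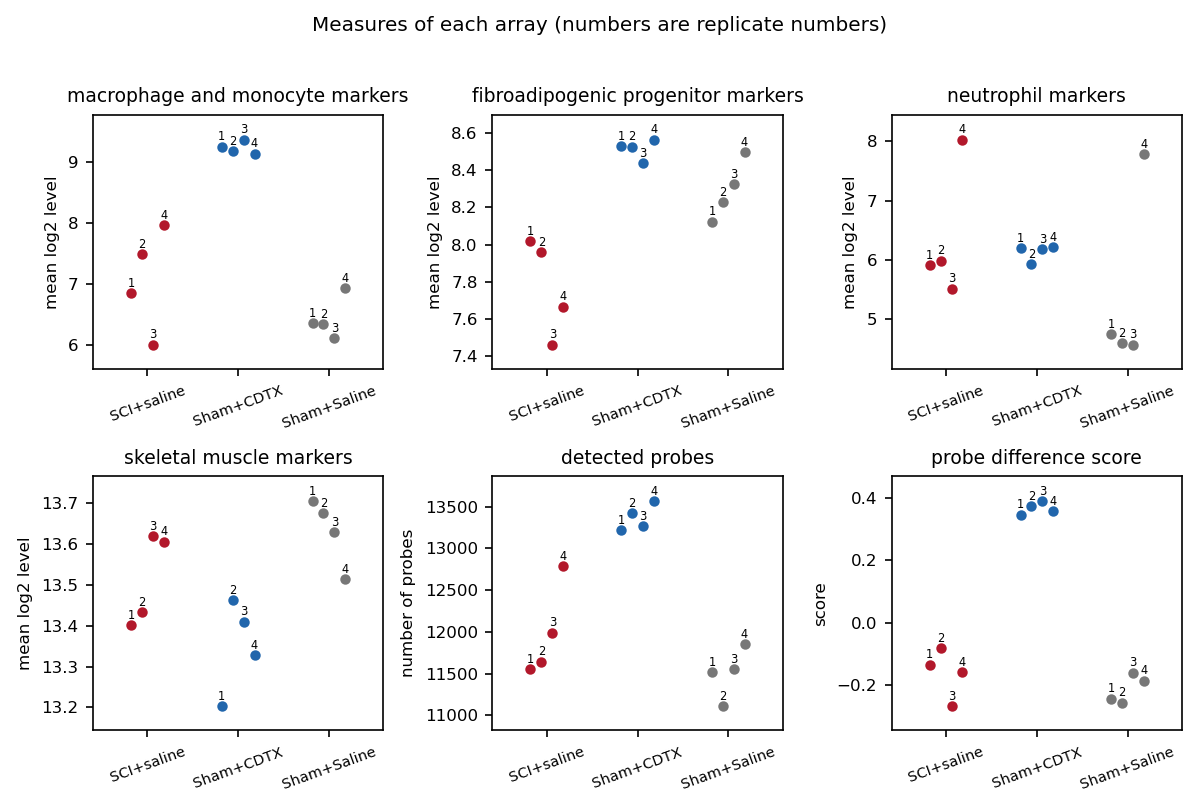
Measures of each array in SCI+saline, Sham+CDTX and Sham+Saline (x axis), with replicate numbers beside the points: mean log2 levels of 4 marker lists, the number of detected probes, and the probe difference score (y axes). Macrophage markers, detected probes and the score separate Sham+CDTX from SCI+saline, and neutrophil markers are highest on array 4 of both saline groups.

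Probes of one gene did not always give one answer. Of 2740 genes with at least 2 measured probes, 1504 had the brighter probe called, and the second probe differed in the same direction in 1268 of them (84.31%). Where the brighter probe differed by at least 1, this was 489 of 542 (90.22%). The second probe was called in the opposite direction for 63 genes. Tpm3, a tropomyosin gene of the slow fibre list, was one of them, and by its brightest probe it was counted above among the slow genes called higher in Sham+CDTX. The first 30 bases of its brightest probe, at base 629 of its listed transcript, and of a second one at base 6 of its own, are printed for comparison with nothing marked.
Tpm3 probe at 629: cagatcagactgatggaccagaacctgaag
Tpm3 probe at 6: cagaagaagctgaaagggacagaggatgag
The probe at 629 had levels of 6.67, 7.6, 6.89 and 7.92 on SCI+saline 1 to 4 and of 9.66, 9.41, 9.81 and 9.92 on Sham+CDTX 1 to 4, or -2.43 ± 0.22 (SE; adjusted p = 1.01e-07). The probe at 6 had 7.68, 9.14, 8.94 and 8.85 and 7.55, 6.74, 6.3 and 7.54, or 1.62 ± 0.40 (SE; adjusted p = 0.00246). The probes at 2 and 181 of other listed transcripts differed by 1.44 and 1.43. Averaged over its probes, Tpm3 differed by 0.52 and was not called (adjusted p = 0.146).

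Actb, cytoplasmic beta-actin and often a reference gene, had probes far apart. Its brightest probe had levels of 13.73, 13.9, 13.96 and 13.86 on SCI+saline and of 13.64, 13.67, 13.64 and 13.57 on Sham+CDTX arrays, and was not called (0.24 ± 0.12 (SE; adjusted p = 0.121)). A probe at base 1412 of the listed transcript had 9.68, 10.08, 9.0 and 8.65 on SCI+saline arrays and 4.35, 4.39, 4.35 and 4.52 on Sham+CDTX arrays, where it was detected on 1 of 4. In Sham+Saline that probe stood at 9.5 to 10.26, so its low values belong to Sham+CDTX. A neighbour at base 1408 was detected on 0 of 4 Sham+CDTX arrays and was at least 26.8-fold higher in SCI+saline, against the lowest signal among detected probes. The probes at 14 and 1610 went the other way, at -1.84 and -0.48. Averaged over its 5 probes Actb was called, at 1.55. Myl12b, a regulatory myosin light chain, had a brighter probe at -0.85 and a second at 2.42, both called.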

How the data were processed

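Muscle RNA of 16 samples was read on Illumina bead arrays, after biotin labelling of cRNA (Ambion MessageAmp, per the protocols in the labels). The authors deposited a table of bead-summary intensity and detection p-value per probe and array, not normalized and without background subtraction, per the file headers, with GenomeStudio 2011.1 named in the submitters' processing notes. No genome build was given in the sources used here for the array annotation, so array probes carry chromosome and band only.

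Intensity was corrected by normexp with the detection p-values, an offset of 16 was added, and arrays were quantile normalized and put on a log2 scale (neqc, limma 3.58.1, R 4.3.3). The offset shrinks differences of dim probes. As in the authors' final table, SCI+CDTX 2 was left out, which gives 15 arrays. Probes with a detection p-value under 0.05 on at least 3 arrays were kept. limma fitted 4 group means with 1 shared spread, p-values were adjusted over all kept probes by Benjamini-Hochberg, and a call is an adjusted p under 0.05. A gene stands for its brightest kept probe. A bound for a probe not detected in a group uses the lowest detected signal. Array measures were compared by exact permutation tests. The depth of a bead array is not a read depth, and the number of arrays limits the precision. The limma comparison was tested on simulated log2 levels with planted differences. Background correction, normalization and the score fit were not part of that test.

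Named genes were the 8 highest and 8 lowest called differences with groups that do not overlap, 6 genes a direction whose probes all moved together, up to 3 members a list and direction, 5 genes a direction alike in both groups, and Actb, Gal, Ankrd1, Mettl21c and Glycam1. The 6 genes were ranked by the smallest difference over their probes, and the list members were the called ones with the largest differences. Other members are named to show the range of a list. Some members that the rule names are not reported here. Members and lists were chosen with earlier results of these data known. The alternatives were median scaling, no background correction, other filters, other array sets, the replicate number as a block, the probe difference score as a covariate, a trended robust prior, each array left out and, chosen after seeing the data, the mean of a gene's probes. Promoter windows are RefSeq's, on GRCm38.p6.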

Additional observations from a re-analysis of the deposited data

Results flagged for a closer look

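In 15 of 252 groups of 4 arrays, 1 array lay apart from the other 3 by more than Dixon's 95% limit; chance flags about 1 in 20 groups. Among atrophy and fibre genes on Sham+CDTX arrays, Trim63 was 6.74 on array 1 (others 7.45 to 7.56), Eif4ebp1 10.62 on array 1 (9.90 to 9.96), Bnip3l 8.96 on array 4 (9.16 to 9.18), and Myl4 10.07 on array 1 (9.10 to 9.13). Among metabolic and proteasome genes there, Acadvl was 10.29 on array 2 (9.81 to 9.88), Perm1 8.98 on array 1 (9.79 to 9.84) and Psmd8 10.14 on array 2 (10.48 to 10.53). Of the interferon list, Cxcl10 was 6.04 on Sham+CDTX 2 (5.74 to 5.76) and Oasl2 9.88 on Sham+CDTX 4 (10.34 to 10.38). On SCI+saline arrays, Npm1 was 11.30 on array 3 (11.45 to 11.48), Junb 8.33 on array 1 (7.90 to 7.93) and Glycam1, an endothelial mucin ligand of lymph nodes, 4.97 on array 1 (4.19 to 4.32), the only array of both groups on which it was detected. Neutrophil markers had a mean of 5.926 on Sham+CDTX 2 (6.176 to 6.210), mast cell markers one of 5.436 on SCI+saline 3 (6.537 to 6.598), and erythroid markers one of 8.868 on SCI+saline 4 (7.310 to 7.469).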

How the results depend on the processing

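Slide as a block was not run, since each surgery lies on 1 slide. Replicate numbers did not pair SCI+saline with Sham+CDTX arrays: same-numbered arrays of these groups correlated at -0.1464 to 0.064 in their deviations. Pairing with Sham+Saline arrays was not checked. With the number as a replicate block 6907 probes were called, and Pygm lost its call (adjusted p = 0.0525). With the score, 3778 probes were called, 1819 higher in SCI+saline and 1959 lower, 3595 by at least 1, and Sham+CDTX against Sham+Saline gave 3094 (1675 higher, 1419 lower). Without background correction 978 calls reached 1. Under median scaling SCI+saline against Sham+Saline gave 4436 higher, 696 lower and 1609 by at least 1, and Sham+CDTX against it 6705 higher and 1172 lower.

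In the score fit the sign turned for Tpra40 (-0.67), Prkar1a (0.076), Myh1 (0.68), Myh2 (0.13), Myl4 (-1.41), Actc1 (0.089), Pygm (-0.18), Ldha (0.074), Decr1 (-0.20), Ppargc1b (0.90), Atp5o (-0.057), Atp5a1 (1.14), Bop1 (-0.48), Noc4l (-0.37), Nop58 (2.16), Ccl19 (-0.22), Id1 (-0.56) and Dnajc2 (2.01). The mean of a gene's probes turned Tpm3 (0.52). The cause was not tested. Leaving out 1 array gave 6347 to 7077 calls, and the difference in detected probes was -1640.3 to -1229.7, where 4 against 3 arrays cannot give a permutation p under 0.05714. Of 114 named genes, 65 kept direction and side of the threshold with the score, 98 under median scaling and 105 to 113 without 1 array of the groups compared.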

Other observations

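Ribosome biogenesis genes were called higher than Sham+Saline for 15 of 18 measured in SCI+saline (14.7% of all genes were) and for 8 in Sham+CDTX (23.7%). Under median scaling these were 16 and 14, where 30.0% and 45.4% of all probes were called higher. Between the groups they were mixed, 6 higher in SCI+saline and 3 in Sham+CDTX. Npm1, nucleophosmin, which shuttles ribosomal parts, was lower in SCI+saline by -1.24 ± 0.14 (SE; adjusted p = 1.24e-06), and was above Sham+Saline by 0.57 in SCI+saline and 1.80 in Sham+CDTX. A fit that took in the probe difference score put Npm1 at -0.13 between the groups, not called (adjusted p = 0.797).

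Endothelial markers were below Sham+Saline in both groups, with 11 of 12 called lower in SCI+saline (15.8% of all genes were) and 8 in Sham+CDTX (26.9%). Under median scaling these were only 3 and 4, where 4.71% and 7.94% of all probes were called lower. Neutrophil marker means were 5.91, 5.99, 5.51 and 8.03 on SCI+saline 1 to 4 and 4.75, 4.60, 4.57 and 7.78 on Sham+Saline 1 to 4, so array 4 was the highest of both saline groups. Erythroid marker means were also highest on array 4 of both, at 8.87 and 9.28. In each of these groups array 4 lies at position H of its slide. Erythroid means were 7.31 to 8.87 in SCI+saline and 6.74 to 7.25 in Sham+CDTX, without overlap (exact permutation p = 0.0286). Sham+Saline ran from 6.94 to 9.28. Mast cell marker means were 5.44 to 6.60 in SCI+saline and 6.69 to 6.92 in Sham+CDTX, also without overlap (exact permutation p = 0.0286). For these markers Sham+Saline ran from 5.919 to 6.925. Of 4 mast cell markers measured, 2 were called higher in Sham+CDTX, and 0 with the score in the fit. Sham+CDTX arrays lay between 5.93 and 6.21 for neutrophil markers, and the comparison with SCI+saline gave an exact permutation p of 0.9714. Lymphocyte markers were low in both groups, with means of 4.32 to 4.55 and 4.47 to 4.72, and Lck, a T cell kinase, was the 1 of 7 called (higher in Sham+CDTX), a call lost with the score.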
